A study of Homo sapiens with 5 samples.

Results

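Matrix metalloproteinases are zinc-dependent enzymes that cut proteins of the extracellular matrix, and the tissue inhibitors of metalloproteinases (TIMPs) bind and block them. The genes described here are 7 proteases and 3 inhibitors, 10 in all of the 17651 genes measured on both kinds of array, chosen by name: MMP1, MMP2, MMP3, MMP7, MMP9, MMP10, MMP14, TIMP1, TIMP2 and TIMP3. All 10 had a probe annotated with exactly 1 symbol, and TIMP3, which had 2, was read from its brighter probe. Transcript levels came from 5 Affymetrix human Gene ST arrays of MCF12A monolayers, an immortal but non-tumorigenic cell line from human mammary epithelium, in medium with horse serum, epidermal growth factor, hydrocortisone, insulin and cholera toxin. Each group had 1 array. The first values table held a culture in 2.5% ethanol for 4 weeks, a culture in 1% acetaldehyde, to which ethanol is oxidised, for the same time, and an untreated control. The second held an anchorage-independent clone and a control for that clone. The clone was isolated from soft agar after exposure to ethanol, labelled as 4 weeks, and regrown on plastic. The clone is a single cellular clone, its ethanol is labelled as 2.5% in one place and as 2.5 mM in another, and its control is labelled as unexposed but also as selected on soft agar.

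Most of these proteases are secreted as inactive precursors and are named by their substrates: MMP1 is an interstitial collagenase, MMP2 and MMP9 are gelatinases that degrade denatured collagen and basement membrane collagen, MMP3 and MMP10 are stromelysins, and MMP7, matrilysin, is made mainly by glandular epithelium. MMP14 is anchored in the cell membrane and activates the MMP2 precursor at the cell surface in a complex with TIMP2. TIMP1 is a soluble inhibitor, and TIMP3 is held in the matrix and also inhibits sheddases of the ADAM family. In the breast these enzymes take part in duct branching and involution, and fibroblasts of the stroma are a known source of MMP2.

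Values are intensities on the linear scale of the deposited tables, and differences are log2 of one array over another within a table. With 1 array per group there was no spread between cultures to set a difference against, so no test was run. A gene was counted as higher or lower where it differed by at least 2-fold and the brighter array reached the median of its table, called the floor here, which was 70.2 in the table with ethanol and 92.0 in that with the clone. Where the dimmer array was under the floor the gene was counted on its measured values, and its fold is also given against the floor, as at least N-fold. The median intensities of the 5 arrays were 69.98 to 94.0. In the first table, 43.9% of probes had the same value in ethanol and control, and 48.2% the same in acetaldehyde and control, whereas 1.02% were equal in the second table. The cause of the equal values was not tested. Among genes past the floor the log2 differences from control had a standard deviation of 0.98 in the clone, 0.50 in ethanol and 0.25 in acetaldehyde, so a fold of one size was less common in acetaldehyde than in the clone.

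MMP2, MMP14, TIMP1, TIMP2 and TIMP3 were above the floor on all 5 arrays. MMP1, MMP3 and MMP10 were under it on all 5, MMP7 was under it on 4, and MMP9 reached it on 1. Against their own controls, MMP2 was at least 2-fold higher in ethanol, acetaldehyde and the clone, TIMP2 in ethanol and the clone, and MMP7 and TIMP1 in the clone. TIMP3 was at least 2-fold lower in the clone.

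**Figure D1:**
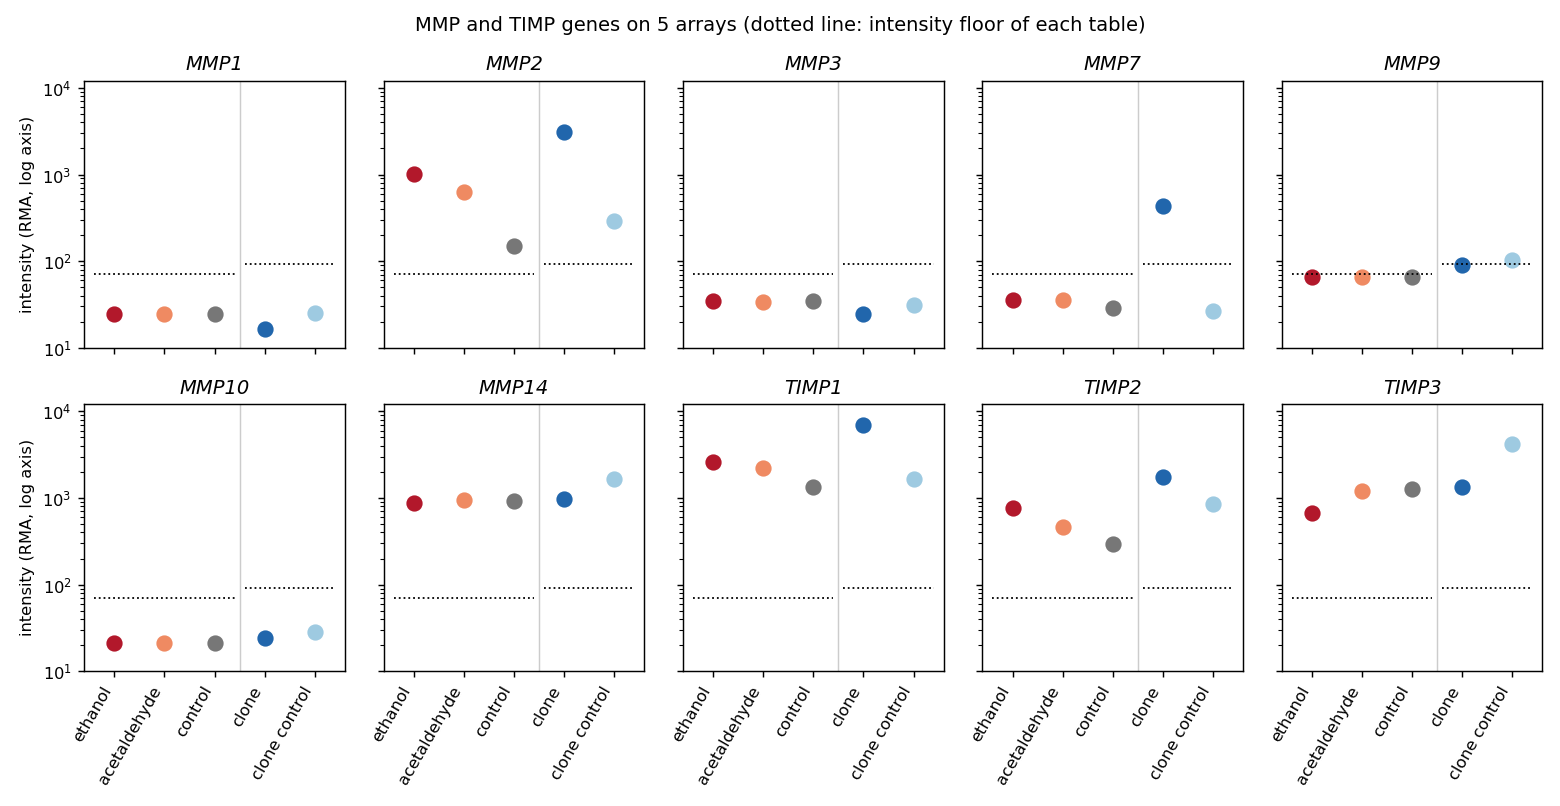
Intensity of each gene on the 5 arrays, 1 point per array on a log axis, with ethanol, acetaldehyde and control from one table left of the line and the clone and its control from the other right of it. Dotted lines are the floors of 70.2 and 92.0, which MMP2, MMP14, TIMP1, TIMP2 and TIMP3 exceeded on every array. Heights are not comparable between genes.

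In ethanol 2 of the 10 genes were higher (MMP2 and TIMP2) and 0 lower, with 5 past the floor, where 2.63% of 11264 genes were higher and 2.46% lower. In acetaldehyde 1 was higher (MMP2) and 0 lower, with 5 past the floor, where 1.03% of 11194 genes were higher and 0.0536% lower. In the clone 4 were higher (MMP2, MMP7, TIMP1 and TIMP2) and 1 lower (TIMP3), with 7 past the floor, where 14.7% of 12262 genes were higher and 5.84% lower. Between acetaldehyde and ethanol 0 of the 10 reached 2-fold either way, where 1.87% of 11221 genes were higher in acetaldehyde and 0.526% lower. The median log2 difference over the 10 genes was 0 in ethanol, 0.02 in acetaldehyde and -0.20 in the clone, and over all genes measured, whether or not past the floor, it was 0 in ethanol, 0 in acetaldehyde and -0.14 in the clone. The members' medians include genes under the floor, of which 4 had equal values in ethanol and control and 3 in acetaldehyde and control.

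**Figure D2:**
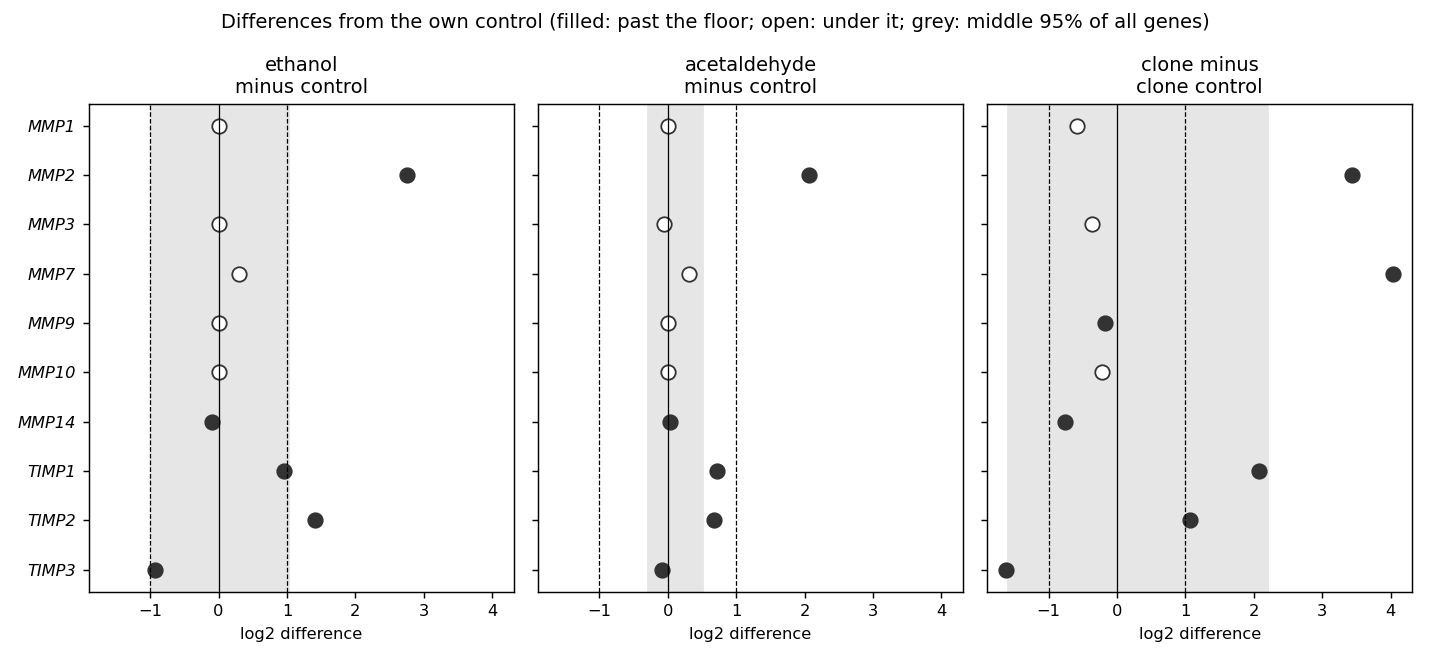
Log2 difference from the own control for the 10 genes in ethanol, acetaldehyde and the clone, with filled points past the floor and open points under it, dashed lines at 2-fold and the middle 95% of all genes past the floor in grey. MMP2 lies outside the grey band each time, at 2.76, 2.06 and 3.43, and TIMP1 and TIMP2 lie outside it in acetaldehyde at 0.72 and 0.67 without reaching 2-fold. MMP7 in the clone is drawn at its measured 4.04, with its control under the floor.

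In acetaldehyde the middle 95% of genes past the floor lay between log2 differences of -0.29 and 0.52, and TIMP1 and TIMP2 were beyond it at less than 2-fold. In the clone the same range was -1.60 to 2.21. TIMP1 and TIMP2 lay inside it in the clone, although both were past 2-fold there, and MMP2 and MMP7 lay beyond it. TIMP3, at -1.62, was just outside.

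MMP2 had an intensity of 1026 in ethanol and 631 in acetaldehyde, against 151 in the control. Both exposed cultures were thus above the control, ethanol more so than acetaldehyde. The log2 difference was 2.76 in ethanol, a 6.78-fold higher level, and 2.06 in acetaldehyde, 4.17-fold higher. These were rank 33 of 11264 genes from the top in ethanol and rank 29 of 11194 in acetaldehyde, so MMP2 stood near the top of both lists although acetaldehyde gave the smaller fold. The 2 comparisons share their control array. Between the exposures, at labelled doses that differ, acetaldehyde had a log2 difference of -0.70 from ethanol, short of 2-fold.

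In the second table MMP2 had an intensity of 3105 in the clone, against 287 in the clone's control. The clone was 10.8-fold higher, a log2 difference of 3.43 and rank 57 of 12262 genes. This pair shares no array with the first table. In bulk cultures, more cells that make MMP2 and more MMP2 transcript per cell cannot be told apart.

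By Euclidean distance over the 3 log2 differences from control, 3 genes were closest to MMP2 among 10445 genes past the floor each time. They were IL1R1, the receptor for interleukin-1, at a distance of 0.49, EDIL3, a secreted integrin ligand, at 0.54, and PDE7B, a phosphodiesterase that hydrolyses cyclic AMP, at 0.59. IL1R1 had intensities of 435 in ethanol and 297 in acetaldehyde, against 53.7 in the control, and 804 in the clone, against 76.8 in its control. It stood higher in ethanol than in acetaldehyde, as MMP2 did, which follows from its selection on these same differences. All 3 genes had controls under the floor in both tables, which those of MMP2 were not, so the distances and their order rest on values under the floor. Against the floor, for ethanol, acetaldehyde and the clone in that order, IL1R1 was at least 6.19-fold, 4.23-fold and 8.74-fold higher. In the same order EDIL3 was at least 4.35-fold, 2.15-fold and 2.37-fold higher, and PDE7B at least 4.21-fold, 2.42-fold and 3.41-fold. The other gelatinase gene, MMP9, had 65.4 on each of the 3 arrays of the first table, and 91.3 in the clone, against 103 in its control. MMP9 thus lay under the floor on 4 arrays and differed from its control by less than 2-fold in every pair.

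MMP14, the membrane-bound activator of MMP2, had 871 in ethanol and 955 in acetaldehyde, against 933 in the control. The 3 arrays lay close together, with log2 differences of -0.10 in ethanol and 0.03 in acetaldehyde. In the clone it had 980, against 1664 in the clone's control, a log2 difference of -0.76 and 1.70-fold lower. MMP14 therefore reached 2-fold in no pair, and in the clone its difference had the opposite sign to that of MMP2. MMP14 lies on chromosome 14 and MMP2 on chromosome 16.

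MMP7 was above the floor in the clone and under it on every other array. Its intensity was 436 in the clone, against 26.6 in the clone's control, which is under the floor. The log2 difference of these values was 4.04, rank 38 of 12262, and measured against the floor the clone was at least 4.74-fold higher. The measured difference is above that of MMP2 in the clone and the bound is below it. In the first table MMP7 had 35.3 in ethanol and 35.6 in acetaldehyde, against 28.8 in the control. All 3 of those arrays lay under the floor, so no difference was counted. The clone and the ethanol culture belong to different tables and were not set against each other.

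In the RefSeq annotation MMP7 is the first of 9 neighbouring protease genes on chromosome 11, with MMP20, MMP27, MMP8, MMP10, MMP1, MMP3, MMP12 and MMP13 following. All 9 were measured, and MMP7 in the clone was the single value of any of them at or above a floor on any array. MMP10 had 24.1 in the clone, against 28.2 in its control, and 21.1 on each array of the first table. MMP1 had 16.6 in the clone, against 25.0 in its control, and 24.3 on each array of the first table. Both lay far under the floor and less than 2-fold from their controls. MMP3 had 24.5 in the clone, against 31.5 in its control, with 34.5 in ethanol and 33.3 in acetaldehyde, against 34.5 in the control of the first table. MMP1, MMP9 and MMP10 thus had equal values in ethanol, acetaldehyde and control, and MMP3 in ethanol and control, while 71.6% of genes under the floor were equal in ethanol and control and 74.8% in acetaldehyde and control.

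**Figure D3:**
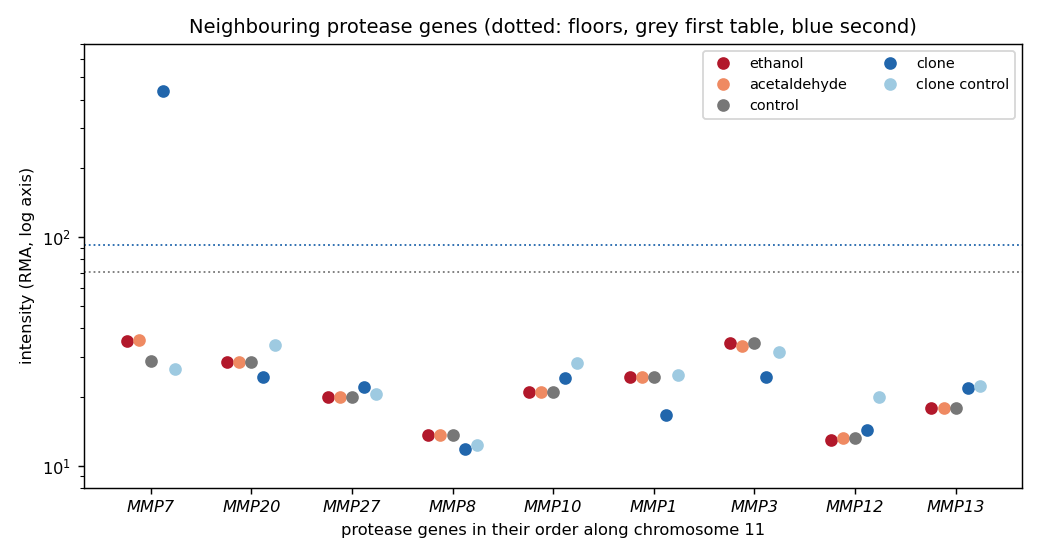
Intensity on a log axis of 9 protease genes in their order along chromosome 11, 1 point per array. Dotted lines are the floors of 70.2 (grey) and 92.0 (blue), and MMP7 in the clone, at 436, is the single point above them.

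The promoters of MMP7 and MMP10 are shown because these neighbours share motifs and yet 1 of them stood far above its control in the clone and the other under the floor on every array. RefSeq promoters were matched for 5 of the 10 genes (MMP7, MMP10, MMP14, TIMP1 and TIMP3), and the 250 bases before the annotated start in build GRCh38.p14 were searched on both strands for 4 motifs. The AP-1 motif was TGANTCA. The ETS motif, for a family of factors that bind a purine-rich core, was GGAAGT. The Sp1 motif, found in many promoters without a TATA box, was GGGCGG. The TATA box, which places the start of transcription, was searched as TATAAA. Capitals mark any match, and no matches overlapped. MMP7 is chr11:102530748-102530997 and MMP10 is chr11:102780629-102780878, both read 5′ to 3′ on the minus strand.
MMP7: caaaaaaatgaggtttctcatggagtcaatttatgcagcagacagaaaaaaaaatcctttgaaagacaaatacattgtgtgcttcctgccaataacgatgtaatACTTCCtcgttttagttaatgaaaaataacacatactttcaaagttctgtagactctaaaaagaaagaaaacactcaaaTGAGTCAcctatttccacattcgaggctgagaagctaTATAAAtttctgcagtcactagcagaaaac
MMP10: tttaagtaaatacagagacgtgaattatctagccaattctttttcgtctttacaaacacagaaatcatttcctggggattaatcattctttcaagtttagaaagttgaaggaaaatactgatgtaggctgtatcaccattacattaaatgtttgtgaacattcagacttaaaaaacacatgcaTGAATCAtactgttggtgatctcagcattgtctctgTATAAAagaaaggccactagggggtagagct
AP-1 is a dimer of FOS and JUN proteins and is known to act on many protease promoters. Both promoters held 1 AP-1 match at the same place, from base -67 to base -61 counted back from the start. It read TGAGTCA in MMP7 and TGAATCA in MMP10. Both held a TATA box, from base -30 in MMP7 and from base -31 in MMP10. MMP7 also held 1 ETS match on the opposite strand, from base -146. Of 35116 promoters of this length, 6.57% held the AP-1 motif, 10.7% the TATA box, 19.5% the ETS motif and 42.6% the Sp1 motif. A match describes the letters and not the binding of a factor.

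**Figure D4:**
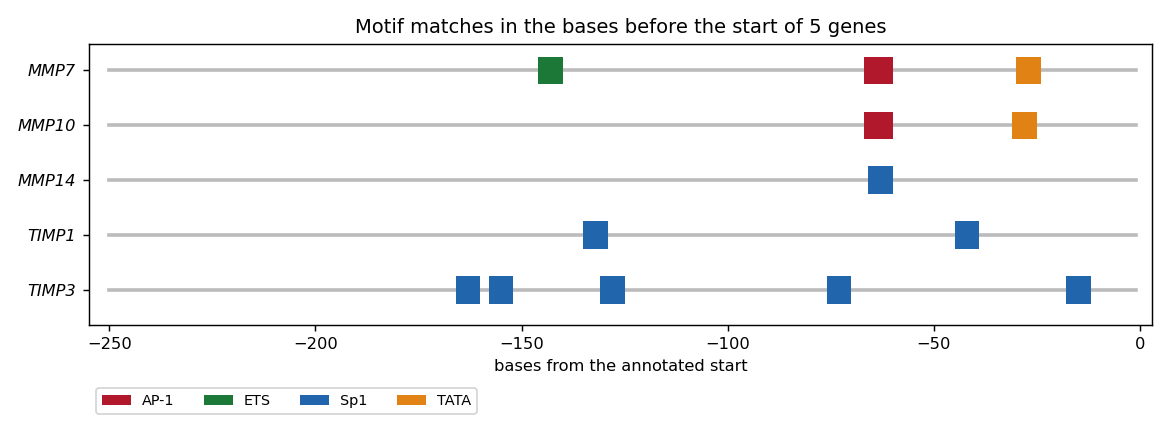
Positions of the motif matches in the 250 bases before the start of 5 genes, in bases from the annotated start, with colour for the motif. MMP7 and MMP10 have AP-1 matches at -67 to -61, while MMP14, TIMP1 and TIMP3 have Sp1 matches and no AP-1 match.

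The 3 inhibitors differed from control in both directions. TIMP1 had 2615 in ethanol and 2225 in acetaldehyde, against 1354 in the control, so that both exposed cultures were brighter than the control by less than 2-fold. The log2 differences were 0.95 and 0.72, or 1.93-fold and 1.64-fold, and ethanol was just short of the threshold. In the clone TIMP1 had 7023, against 1664 in its control, 4.22-fold higher with a log2 difference of 2.08. TIMP1 was at rank 314 of 11264 genes from the top in ethanol and at rank 184 of 11194 in acetaldehyde.

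TIMP2, which joins MMP14 in the activation of MMP2, had 777 in ethanol and 464 in acetaldehyde, against 292 in the control. It followed the same order as MMP2, with ethanol above acetaldehyde and acetaldehyde above the control. The log2 difference was 1.41 in ethanol, 2.66-fold higher, and 0.67 in acetaldehyde, 1.59-fold higher. Acetaldehyde was 1.67-fold lower than ethanol, a log2 difference of -0.74. In the clone TIMP2 had 1770, against 842 in its control, 2.10-fold higher with a log2 difference of 1.07, which is close to the threshold. That placed it at rank 1629 of 12262, far from the top of the clone's list.

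TIMP3 was the inhibitor at least 2-fold lower in the clone, where TIMP1 and TIMP2 were higher. It had 678 in ethanol and 1218 in acetaldehyde, against 1287 in the control. In ethanol it was 1.90-fold lower than the control, a log2 difference of -0.92, while acetaldehyde had -0.08. The value in ethanol was short of 2-fold and inside the middle 95% of genes past the floor, whose lower end was -0.98. In the clone TIMP3 had 1357, against 4159 in its control, 3.07-fold lower with a log2 difference of -1.62 and rank 301 of 12262 from the bottom. Its second, dimmer probe had 184 in ethanol and 253 in acetaldehyde, against 332 in the control, and 244 in the clone, against 1006 in its control. The log2 differences of that probe were -0.85, -0.39 and -2.05, so the probes had the same signs but differed in acetaldehyde and in the clone. In acetaldehyde the dimmer probe was beyond the lower end of the middle 95% of genes, -0.29, and the brighter probe was not.

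The promoters of TIMP1 and TIMP3 are shown because these inhibitors differed from control in opposite directions in the clone. TIMP1 is chrX:47582186-47582435 and TIMP3 is chr22:32801455-32801704, both on the plus strand in GRCh38.p14, with matches in capitals as above.
TIMP1: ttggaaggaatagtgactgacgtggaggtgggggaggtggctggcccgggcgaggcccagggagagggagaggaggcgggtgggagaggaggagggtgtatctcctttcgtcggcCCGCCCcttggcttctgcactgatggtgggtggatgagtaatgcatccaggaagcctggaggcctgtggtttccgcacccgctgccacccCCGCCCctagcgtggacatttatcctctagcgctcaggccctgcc
TIMP3: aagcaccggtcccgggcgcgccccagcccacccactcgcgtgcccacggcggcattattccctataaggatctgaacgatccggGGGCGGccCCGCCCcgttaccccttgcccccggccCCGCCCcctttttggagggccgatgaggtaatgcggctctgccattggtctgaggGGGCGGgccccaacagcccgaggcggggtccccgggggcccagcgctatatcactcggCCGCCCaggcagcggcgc
The Sp1 motif, counting either strand, was at 2 places in TIMP1 and 5 in TIMP3. Neither held the AP-1, ETS or TATA letters in this window. MMP14 held 1 Sp1 match, from base -66. In the annotation TIMP1 lies within the span of SYN1 and TIMP3 within that of SYN3, both synapsin genes, and the span of TIMP2 holds CEP295NL. SYN1 and SYN3 differed from control by less than 2-fold in every pair. SYN1 had 68.2 on each array of the first table and 89.6 in the clone, against 118 in its control, and SYN3 had 95.6 on each array of the first table and 87.6 in the clone, against 112 in its control.

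The counts of the gene lists that follow stand beside shares over all genes past the floor of 2.63% higher and 2.46% lower in ethanol, 1.03% and 0.0536% in acetaldehyde, and 14.7% and 5.84% in the clone. The other MMPs and TIMP4 numbered 17, of which 16 were measured, and most were dim. In ethanol and in acetaldehyde 4 were past the floor and 0 reached 2-fold. In the clone 6 were past the floor, with MMP19 higher and MMP28 lower. MMP19 had 216 in the clone, against 96.8 in its control, a log2 difference of 1.16. MMP28, known as epilysin and made by keratinocytes, had 191 in the clone, against 398 in its control, a log2 difference of -1.06. MMP28 also had 188 in ethanol and 320 in acetaldehyde, against 299 in the control, log2 differences of -0.67 and 0.10 that did not reach 2-fold.

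Genes that activate, restrain or clear these proteases numbered 17 measured, of which 14 were past the floor in each comparison. In ethanol 4 were higher and 1 lower, in acetaldehyde 3 higher and 0 lower, and in the clone 5 higher and 1 lower, with list medians of 0.12, 0.04 and 0.33. RECK, which encodes a membrane-anchored inhibitor of MMP2, MMP9 and MMP14, had 224 in ethanol and 145 in acetaldehyde, against 70.0 in the control, and 389 in the clone, against 74.0 in its control. Like MMP2 it was higher in all 3, at least 3.19-fold, at least 2.07-fold and at least 4.23-fold against the floor. TFPI2, a serine protease inhibitor of the matrix, had 1647 in ethanol and 553 in acetaldehyde, against 63.7 in the control, and 1080 in the clone, against 33.6 in its control. Its controls were under the floor in both tables, and against the floor it was at least 23.5-fold, 7.88-fold and 11.7-fold higher. SERPINE2, which encodes protease nexin and blocks thrombin and plasminogen activators, also had both controls under the floor and was at least 20.1-fold higher in ethanol, 6.95-fold in acetaldehyde and 4.92-fold in the clone. These 3 are the inhibitors of the list that were counted, while A2M, a broad protease inhibitor, was under the floor on every array and had log2 differences of 0.19, 0 and -0.01.

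LRP1, an endocytic receptor that clears MMPs and TIMPs, had 621 in ethanol and 402 in acetaldehyde, against 274 in the control, and 2395 in the clone, against 966 in its control. It was past 2-fold in ethanol and the clone, at log2 differences of 1.18 and 1.31, and not in acetaldehyde, at 0.55. LCN2, a lipocalin that binds MMP9, had 97.8 in ethanol and 281 in acetaldehyde, against 406 in the control, and 107 in the clone, against 2546 in its control. It was 4.15-fold lower in ethanol and 23.9-fold lower in the clone. In the order ethanol, acetaldehyde and clone, the plasminogen activator gene PLAU had log2 differences of -0.69, -0.10 and -0.37. Its product activates several MMP precursors through plasmin. The furin gene FURIN had 0.09, -0.01 and -0.17, and neither gene reached 2-fold. PCSK7 was also counted as higher in the clone, at 217 against 108 in its control, right past the 2-fold threshold. It had 119 on each array of the first table.

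Related metalloproteases of the ADAM and ADAMTS families, which shed membrane proteins and cut proteoglycans and procollagen, were 19 measured genes with 11, 11 and 10 past the floor in ethanol, acetaldehyde and the clone. In ethanol 3 were higher and 0 lower, in acetaldehyde 1 higher and 0 lower, and in the clone 4 higher and 1 lower, with medians of 0.18, 0.17 and 0.84. In the clone the 4 and 1 were of 10 genes, where 14.7% and 5.84% of all genes were counted. ADAMTS9 had 243 in ethanol and 161 in acetaldehyde, against 55.8 in the control, and 145 in the clone, against 60.2 in its control. Both controls were under the floor, and against it ADAMTS9 was at least 3.46-fold higher in ethanol, 2.29-fold in acetaldehyde and 1.58-fold in the clone, where the bound is short of 2-fold. ADAMTS2, a procollagen peptidase, had 313 in ethanol and 240.1 in acetaldehyde, against 145 in the control, and 1097 in the clone, against 208 in its control. ADAM15, lower in the clone, had 365 there, against 1281 in the clone's control.

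Of transcription factors known to bind protease promoters all 20 were measured, and 18 were past the floor in ethanol, with 3 higher and 2 lower, 18 in acetaldehyde, with 1 higher and 0 lower, and 19 in the clone, with 5 higher and 7 lower. In the clone 14.7% of all genes were higher and 5.84% lower. The medians of the list were -0.06, 0 and -0.28. TWIST1, a factor of mesenchymal cells, was the gene counted in acetaldehyde, and had 1007 in ethanol and 670.4 in acetaldehyde, against 151 in the control, and 1191 in the clone, against 508 in its control. It was past 2-fold in all 3, at log2 differences of 2.74, 2.15 and 1.23. Of the AP-1 subunits, JUN had 158 in ethanol and 317 in acetaldehyde, against 317 in the control, which put ethanol lower, right at the 2-fold threshold. In the clone JUN had 209, against 1698 in its control, and FOS had 171, against 755 in its control. FOSB and JUND were also counted as lower there. FOSL1, FOSL2 and JUNB, at log2 differences of 0.01, -0.85 and -0.85 in the clone, did not reach 2-fold. The ETS factors differed among themselves. ETV5 had 297 in the clone, against 45.8 in its control, at least 3.22-fold higher, while its log2 difference was -0.07 in ethanol and -0.83 in acetaldehyde. ETS1 was 2.25-fold higher in ethanol and 2.84-fold higher in the clone, and its log2 difference in acetaldehyde was 0.81. ETS2 was 2.51-fold lower in ethanol and 2.34-fold lower in the clone, with a log2 difference of 0.17 in acetaldehyde. ELF3, an epithelial ETS factor, was 4.15-fold lower in the clone and had log2 differences of -0.88 in ethanol and -0.15 in acetaldehyde.

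Signals known to induce these proteases numbered 12 measured genes among the first 3 arrays and 13 for the clone pair. In ethanol 2 of 8 past the floor were higher and 3 lower, in acetaldehyde 1 of 7 was higher and 1 lower, and in the clone 3 of 8 were higher and 4 lower, with medians of 0, -0.32 and -0.96. TGFB2, a transforming growth factor, was 19.4-fold higher in ethanol and 7.15-fold higher in acetaldehyde. In the clone, whose control was under the floor, it was at least 14.4-fold higher. TGFB1 went the other way in the clone, 3.50-fold lower, and had log2 differences of 0.55 in ethanol and 0.43 in acetaldehyde. HBEGF was the gene counted as lower in acetaldehyde, at 2.14-fold, and was 3.19-fold lower in ethanol and 10.1-fold lower in the clone. IL1A, the interleukin-1 ligand of the receptor named above, had 411 in ethanol and 1511 in acetaldehyde, against 2345 in the control, and 72.3 in the clone, against 398 in its control. The clone's value is under the floor. IL1A thus lay below its control where IL1R1 lay above. Of the substrates, 15 were measured in ethanol and acetaldehyde and 16 in the clone. In ethanol 4 of 14 past the floor were higher and 2 lower, in acetaldehyde 2 of 14 were higher and 0 lower, and in the clone 6 of 15 were higher and 3 lower, where 14.7% and 5.84% of all genes were counted. COL4A1 and COL4A2, the basement membrane collagens that gelatinases cut, had log2 differences of 1.49 and 1.54 in ethanol, 0.72 and 0.84 in acetaldehyde, and 1.42 and 1.29 in the clone. The first table's control was under the floor for COL4A1, which was at least 2.56-fold higher in ethanol. LAMB3, a laminin gene, was among the substrates lower in ethanol, at 250 against 783 in the control, 3.13-fold lower. The medians of the substrate list were 0.03 in ethanol, 0.04 in acetaldehyde and 0.39 in the clone.

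**Figure D5:**
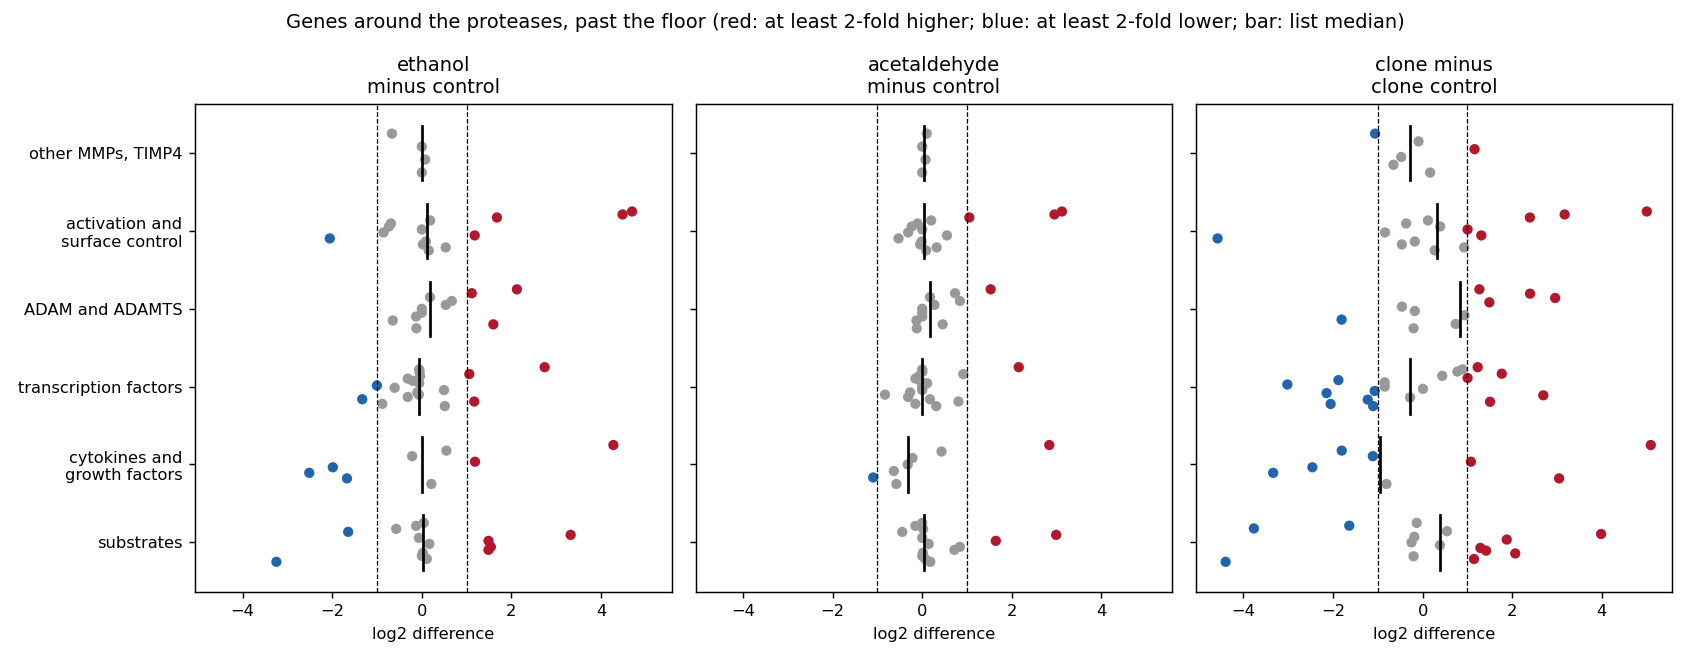
Log2 difference from the own control of the genes past the floor in 6 lists around the proteases, for ethanol, acetaldehyde and the clone, with red points at least 2-fold higher, blue points at least 2-fold lower, and a bar at each list's median. Points are measured values, also where the control was under the floor, as for SERPINE2, at 4.48, 2.95 and 3.17. The medians of all lists lie within 2-fold of control.

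Cell type markers were counted in the same way. Of all genes past the floor 2.63% were higher and 2.46% lower in ethanol. The shares were 1.03% and 0.0536% in acetaldehyde, and 14.7% and 5.84% in the clone. Of 12 breast epithelial markers 9 were measured, and all 9 were above the floor in both controls. Their summed intensity was 9445 in ethanol and 15041 in acetaldehyde, against 14764 in the control, and 10800 in the clone, against 26870 in its control, with 5 lower and 1 higher in ethanol, 0 either way in acetaldehyde and 6 lower in the clone. All 10 fibroblast markers were measured, and their summed intensity was 693 in ethanol and 674 in acetaldehyde, against 586 in the control, and 2067 in the clone, against 974 in its control. In ethanol and in acetaldehyde 4 of the 10 were at or above the floor, against 3 in the control, and in the clone 6, against 4 in its control. DCN was the fibroblast marker counted as higher in ethanol and in acetaldehyde, and COL1A1, COL3A1, DCN and FAP were counted in the clone. DCN had both controls under the floor and was at least 1.25-fold higher in ethanol, 1.40-fold in acetaldehyde and 1.81-fold in the clone, bounds short of 2-fold. LUM had 17.4 in ethanol, against 14.5 in the control, and 8.68 in the clone, against 8.76 in its control, and THY1 was also under the floor on those 4 arrays. The leukocyte and macrophage markers, of which 7 were measured beside ethanol and acetaldehyde and 8 beside the clone, summed to 1771 in ethanol and 1354 in acetaldehyde, against 1031 in the control, and 1530 in the clone, against 1643 in its control, with 3 of them at or above the floor on every array. The endothelial markers, 6 in all, summed to 285 in ethanol and 274 in acetaldehyde, against 274 in the control, and 632 in the clone, against 500 in its control, with 1 at or above the floor on each array but the clone, which had 2. The sums include markers under the floor. Of the leukocyte and macrophage markers past the floor, 1 of 3 was counted as higher in ethanol. Of the endothelial markers, 1 of 2 was counted as higher in the clone. Against control, 0 of either list were counted otherwise. The part of these markers in the results for MMP2, MMP7 and the TIMPs was not tested.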

How the data were processed

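The 5 arrays were deposited as 2 tables of intensity on a linear scale, made with RMA per the submitters' processing notes. Its version and the genome build of the probes are not given in the sources used here. The labels' protocols tie the array design to the length of exposure, yet the tables, of 3 and 2 arrays, belong to different designs although all exposures are labelled 4 weeks. By those protocols the design of the clone pair belongs to a shorter exposure. Arrays were compared within a table, since nothing shows that the tables were normalised together. Probes were named from each design's annotation. Of 33297 probes in each table, 19181 and 19460 had exactly 1 symbol, 2055 and 1754 had several and 12061 and 12083 had none listed. The brightest probe stood for a gene, giving 17958 and 18417 genes. Differences were taken on log2 of the deposited intensity, with no pseudocount. The floor is a table median and not a measured background. Where the dimmer array was under the floor, a fold written as at least N was taken against the floor. No test was possible with 1 array per group, which limits the precision of every value. Calculations were made in Python 3.11.15 with pandas 2.3.3 and NumPy 2.4.6 and were tested on simulated data. The 10 genes and all lists were chosen with earlier results of these data known. Other genes are named where they were past 2-fold or, as with A2M, PLAU, FURIN and the markers, as list members chosen after their values were seen.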

Additional observations from a re-analysis of the deposited data

How the results depend on the processing

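Alternatives covered the floor (none, or 1.5 times the median), a 1.5-fold threshold, centring on the median of all probes, a second quantile normalisation, averaging over all probes of a gene, values under the floor raised to it, and a pseudocount of 16. In 7 of these 8 settings all 40 log2 differences of the 10 genes (4 comparisons each) were counted as before. Several settings had little room to change a count. Averaging could alter only TIMP3, the gene with 2 probes. Centring altered nothing in the first table, where the median log2 difference over all probes was 0. A changed floor or threshold leaves the differences themselves unaltered, so no sign could change there. At 1.5-fold 8 of 40 crossed the threshold. Counts of the 10 genes at 1.5-fold were then 3 higher and 1 lower in ethanol and 3 higher and 0 lower in acetaldehyde. In the clone 4 were higher and 2 lower, and in acetaldehyde against ethanol 1 was higher and 2 lower. Over all genes past the floor at 1.5-fold, 597 were higher and 577 lower of 11264 in ethanol, and 242 and 46 of 11194 in acetaldehyde. The counts were 425 higher and 249 lower of 11221 in acetaldehyde against ethanol, and 3145 and 1871 of 12262 in the clone. A lower threshold admits more genes by construction. Over all settings the log2 difference of MMP2 ranged from 2.64 to 2.76 in ethanol, 1.95 to 2.06 in acetaldehyde and 3.36 to 3.60 in the clone. MMP7 in the clone ranged from 2.24, with values under the floor raised to it, to 4.20 with centring. TIMP2 in the clone ranged from 1.003, after a second quantile normalisation, to 1.24, so its count as higher is marginal. No paired analysis was possible because each group has 1 array. No replicate could be left out for the same reason.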
